A study of Mus musculus with 12 samples.

Results

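Muscle of HFD mice given ncls was compared with muscle of HFD mice given veh, gene by gene, with liver-enriched genes left out. Of the 22276 gene symbols deposited for 12 libraries, 9694 had an FPKM of at least 1 in the HFD-ncls or the HFD-veh muscle library. FPKM is the number of mapped fragments scaled to transcript length and to the depth of the library. Liver-enriched genes, with a mean liver FPKM of 10 or more that was also 20 or more times the median over the 9 libraries of the other organs, made up 245 of these and were left out. A further 6 symbols had no value in liver and were left out too. The remaining 9443 genes are described here, and 8883 of them reached 1 FPKM in both libraries. The other symbols were mostly silent in this muscle, with 12509 of them under 1 FPKM in both libraries.

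The study asked in which organ ncls, a plant alkaloid (narciclasine), acts in diet-induced obesity. Male C57BL/6J mice were fed normal chow (NCD) or high-fat food (HFD) from 8 wk of age, and veh (a cyclodextrin solution) or ncls by weekly oral gavage from 10 wk of age for 7 wk. At 17 wk, RNA was sequenced from quadriceps muscle, liver, BAT and WAT in the groups NCD-veh, HFD-veh and HFD-ncls. The labels name no mutant allele or transgene for any group, and how many mice went into a library is not given in the sources used here. There was 1 library per organ and group, so no spread between animals, no test and no error can be given for any value below. Differences are log2 ratios of HFD-ncls to HFD-veh after 0.1 was added to each FPKM, and 1 on this scale is a 2-fold difference. The NCD-veh library is set beside both, and its own comparison shares the HFD-veh library.

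Skeletal muscle switches between glucose and fatty acids as fuel. Pyruvate dehydrogenase sits at the branch point: its kinases shut the entry of glucose carbon into the citric acid cycle when fat is burned, and its phosphatases open it again. Fibres also differ in type, from fast glycolytic to slow oxidative, and muscle loses protein through ubiquitin ligases that FOXO transcription factors turn on. Quadriceps as dissected holds tendon, fat, vessels and resident macrophages beside the fibres, and in bulk RNA fewer cells of a type and less RNA per cell cannot be told apart.

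The libraries were muscle by their markers. Of 12 muscle fibre markers, 11 were kept (Myh4 had no value), and their summed level was 71029.8 FPKM under HFD-veh and 70142 under HFD-ncls. Depth, estimated from the size of single-fragment steps in low values, was about 2.57e+07 fragments in HFD-veh and 2.53e+07 in HFD-ncls, against 1.82e+07 to 2.57e+07 over all 12 libraries. The HFD-veh library held liver transcripts. The 245 liver-enriched genes left out had a median of 3.005 FPKM there, 0.0741 under HFD-ncls and 0.112 under NCD-veh, and 227 of them had the lower value under HFD-ncls. Their removal does not clear the library of liver RNA, and its weight in the genes kept is given with the lower genes further on.

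Among the genes kept, the median log2 ratio was 0.04, and the quartiles were -0.12 and 0.24. HFD-ncls was over 2-fold higher for 121 genes (1.28% of the genes kept) and over 2-fold lower for 56 (0.593%), together 1.87%. At 1.4-fold, 816 genes (8.64%) were higher and 325 (3.44%) lower, together 12.1%, and 71.5% of the genes past 1.4-fold lay on the higher side. That share was 60.7% with liver-enriched genes kept. Among the 3383 genes with at least 10 FPKM in either library, 32 (0.946%) were over 2-fold higher and 19 (0.562%) over 2-fold lower. The most abundant genes that passed 2-fold were Actc1, Pdk4 and Fbxo32 on the higher side and Mybph, Igfbp5 and Ppp1r3c on the lower side. At the threshold itself, Sesn1, a stress-induced regulator of growth signalling, was just inside at 4.86 FPKM under HFD-veh and 9.87 under HFD-ncls. Tbck was just outside at 0.593 and 1.28 FPKM. On the lower side, Ttll1 was just inside at 1.59 and 0.742 FPKM and Fam78a just outside at 9.38 and 4.70.

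**Figure D1:**
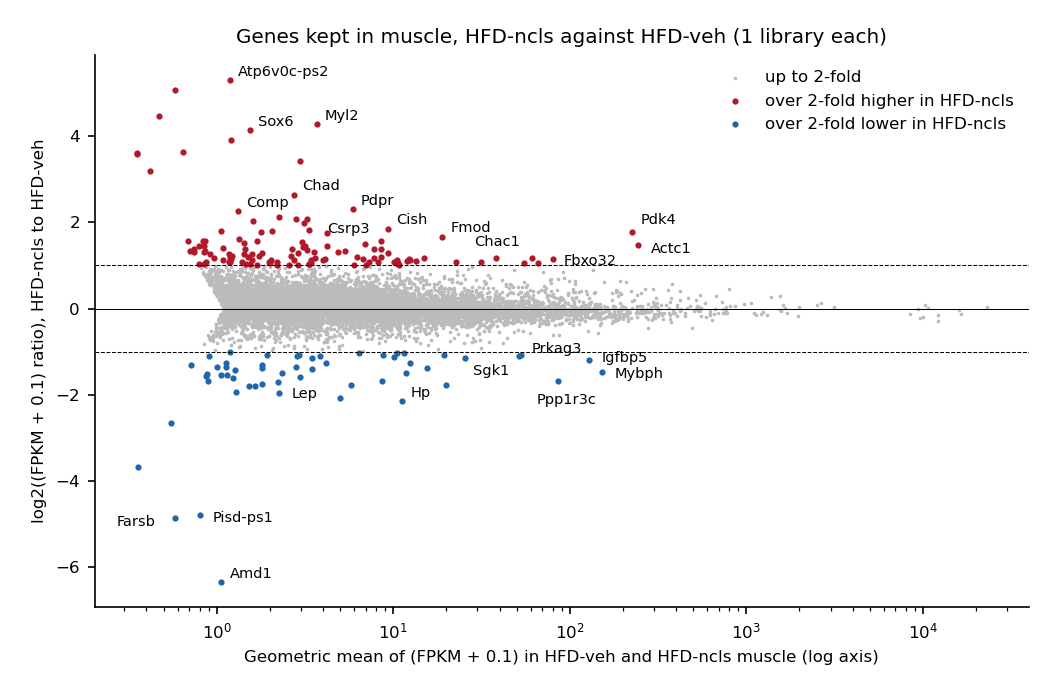
Each point is a gene kept, with its level in the 2 muscle libraries on the x axis (geometric mean of FPKM + 0.1, log axis) and its log2 ratio of HFD-ncls to HFD-veh on the y axis. Red points (121) lie over 2-fold higher and blue points (56) over 2-fold lower, the dashed lines mark 2-fold, and the most extreme ratios belong to genes near 1 FPKM.

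The ratios also moved with transcript length, which bears on every list of long genes below. For 8991 genes with an annotated length (95.2% of those kept), the median log2 ratio was -0.12 for transcripts up to 1000 bases, 0.00 for those of 2000 to 3000 bases and 0.33 for the 359 genes over 8000 bases. In that last class, 98 genes were over 1.4-fold higher and 3 lower. NCD-veh against the same HFD-veh library went from -0.09 to 0.22 over these classes, and HFD-ncls against NCD-veh from -0.02 to 0.12. In liver, the comparison of HFD-ncls with HFD-veh ran the other way, from 0.13 to -0.22. Genes over 1.4-fold higher in HFD-ncls muscle had a median length of 4003 bases and those over 1.4-fold lower 2130. With the median of its length class subtracted from each gene, 552 genes were over 1.4-fold higher and 332 lower. The part of this trend in any single gene was not tested.

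**Figure D2:**
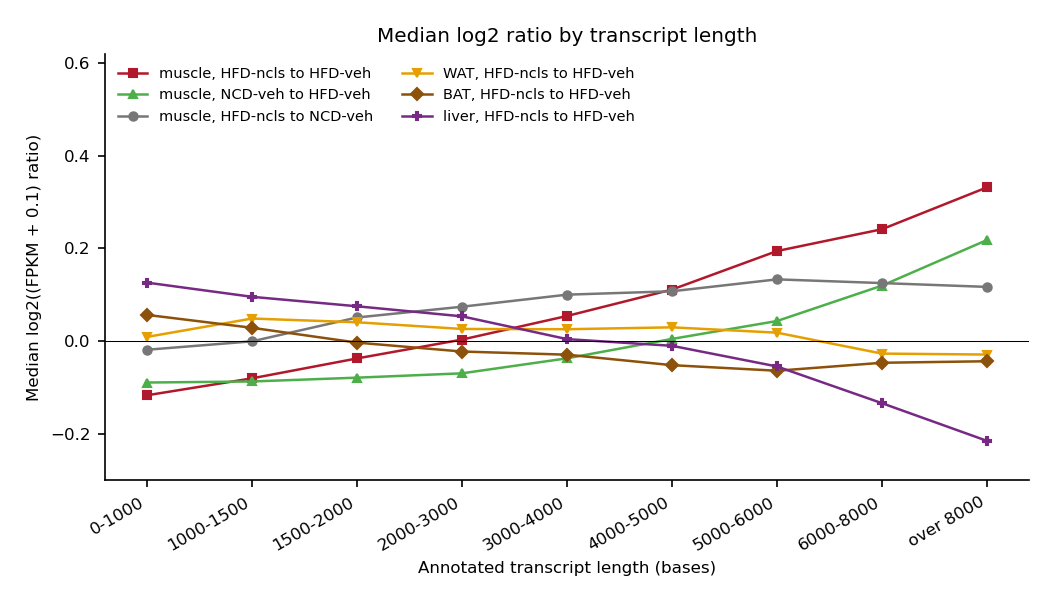
Median log2 ratio (y axis) for genes grouped by annotated transcript length in bases (x axis), with 1 line per comparison. The muscle comparison of HFD-ncls with HFD-veh climbs from -0.12 to 0.33, the liver one falls from 0.13 to -0.22, and the WAT and BAT lines stay between -0.06 and 0.06.

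Genes of fatty acid uptake and oxidation lay on the higher side as a group. All 32 members kept had a ratio above 0, against 56.8% of the genes kept, and their median was 0.40. Over 2-fold, 4 were higher (Pdk4, Acot1, Acot2 and Angptl4), 13 were over 1.4-fold higher, and none was lower at either threshold. The shares over all genes kept were 1.28% over 2-fold higher and 8.64% over 1.4-fold higher. The median was 0.37 after the adjustment for transcript length, 0.44 with the liver share subtracted and 0.10 for NCD-veh against HFD-veh. Slc27a1, Acsl1, Acadl and Cpt1b are on the list and were reported by the study from these same libraries and by qRT-PCR. Their values here are thus no independent sign of the list's direction. Ucp2 and Pnpla2, also on the list, were reported by the study from qRT-PCR.

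Pdk4 (chromosome 6, 5433351 to 5446309 on mm9) encodes the pyruvate dehydrogenase kinase that rises in fasting. It had 404 FPKM under NCD-veh, 122 under HFD-veh and 415 under HFD-ncls, a log2 ratio of 1.77. The NCD-veh and HFD-ncls libraries were close and HFD-veh stood below both. Pdpr (chromosome 8, 113618530 to 113660974), which encodes the regulatory subunit of pyruvate dehydrogenase phosphatase, showed the same order. Its levels were 12.5 FPKM under NCD-veh, 2.55 under HFD-veh and 13.0 under HFD-ncls, a log2 ratio of 2.30. Both regulators of the enzyme thus had HFD-veh as the lowest muscle library. The enzyme's own genes Pdha1, Pdhb and Dlat belong to the citric acid cycle list, in which Idh2 alone passed 1.4-fold. Idh2, a mitochondrial isocitrate dehydrogenase, had 40.6 FPKM under NCD-veh, 36.2 under HFD-veh and 52.3 under HFD-ncls.

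Acot1 and Acot2 encode cytosolic and mitochondrial acyl-CoA thioesterases and lie side by side on chromosome 12 (85350448 to 85358621 and 85328811 to 85334823). Acot2 had 8.66 FPKM under NCD-veh, 5.13 under HFD-veh and 13.6 under HFD-ncls, a log2 ratio of 1.39. Acot1 had 2.42, 1.77 and 4.96 FPKM, a log2 ratio of 1.44. In both genes HFD-ncls was the highest of the muscle libraries, above NCD-veh too. They are near-identical copies, so reads may be split between them and their separate levels are uncertain. Angptl4, a secreted inhibitor of lipoprotein lipase, had 6.47 FPKM under NCD-veh, 4.12 under HFD-veh and 8.4 under HFD-ncls, a log2 ratio of 1.009 (0.96 after the length adjustment). Ucp3, the muscle uncoupling protein, had 115, 52.7 and 95.2 FPKM, a log2 ratio of 0.85. The enzymes of the beta-oxidation spiral itself differed less: Hadha, of the trifunctional protein, had 76.3 FPKM under NCD-veh, 68.7 under HFD-veh and 85.6 under HFD-ncls.

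Sugar metabolism gave a different picture, with a list median of 0.02 over 29 genes of glycolysis and glycogen (-0.03 after rescaling by the median ratio) and only Pfkfb3 and Ppp1r3c past 2-fold. Pfkfb3 makes fructose 2,6-bisphosphate, the activator of phosphofructokinase, and had 143 FPKM under NCD-veh, 45.6 under HFD-veh and 95.4 under HFD-ncls (log2 ratio 1.06, and 0.87 after the length adjustment). Ppp1r3c (chromosome 19, 36806227 to 36811143) encodes a subunit that brings protein phosphatase 1 to glycogen. It had 89.9 FPKM under NCD-veh, 153 under HFD-veh and 47.7 under HFD-ncls, a log2 ratio of -1.68. Here HFD-ncls was the lowest of the muscle libraries, below NCD-veh as well. Glycogen synthase Gys1 had 114 FPKM under HFD-veh and 115 under HFD-ncls, and the glucose transporter Slc2a4 had 143 and 142. Glycolytic enzymes such as Aldoa stood between ratios of -0.25 and 0.40, apart from Pfkl at -0.50 and Ldhb, the heart-type lactate dehydrogenase subunit, at 0.78.

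The energy sensor AMPK was represented by its subunits, and 1 of them differed. Of 25 AMPK and energy-sensing genes kept (median 0.09), Prkag3 was the only member over 2-fold lower. Prkag3 (chromosome 1, 74786073 to 74795795) encodes the regulatory gamma subunit typical of fast glycolytic muscle, and had 42.3 FPKM under NCD-veh, 76.9 under HFD-veh and 36.5 under HFD-ncls. The other subunits stood between ratios of -0.40 (Prkag2) and 0.31 (Prkaa2). Tbc1d1 and Tbc1d4, which hold back glucose transporter vesicles until they are phosphorylated, had log2 ratios of 0.70 and 0.75 (0.46 for Tbc1d1 after the length adjustment). Ppargc1a, also on this list, had 3.51 FPKM under NCD-veh, 3.80 under HFD-veh and 2.98 under HFD-ncls. Its log2 ratio was -0.34, and -0.58 after the length adjustment. The study reports this gene as up-regulated by ncls in muscle of HFD mice, from qRT-PCR over replicate mice and from its RNA-seq. The values here rest on 1 library per group.

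**Figure D3:**
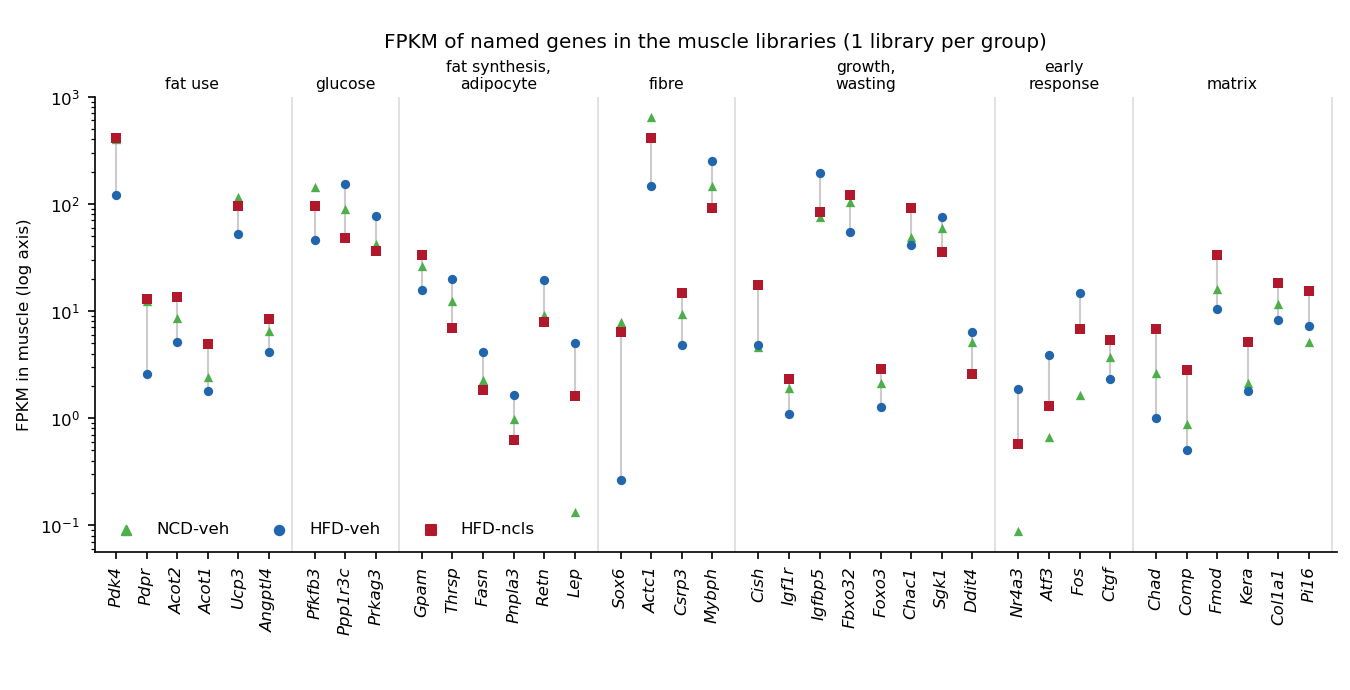
FPKM in the 3 muscle libraries (log axis) for named genes grouped by role, with NCD-veh as green triangles, HFD-veh as blue circles and HFD-ncls as red squares, 1 library each. Pdk4 and Pdpr have NCD-veh and HFD-ncls together and HFD-veh below, whereas Cish, Pi16 and Kera have NCD-veh beside HFD-veh and HFD-ncls above.

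Genes of fatty acid and triglyceride synthesis leaned the other way. The median of the 18 members kept was -0.60, with 3 over 2-fold lower (Thrsp, Pnpla3 and Fasn), 1 over 2-fold higher (Gpam), and 10 lower and 2 higher at 1.4-fold. At 1.4-fold, 3.44% of all genes kept were lower and 8.64% higher. With the liver share subtracted the list's median was -0.35, Thrsp stood at -1.07 and Fasn, at -0.98, no longer passed 2-fold. Thrsp, a promoter of lipogenic enzyme activity, had 12.3 FPKM under NCD-veh, 19.7 under HFD-veh and 6.91 under HFD-ncls. Pnpla3, a lipid droplet protein, had 0.981, 1.66 and 0.627 FPKM. Gpam, the acyltransferase that starts glycerolipid assembly, went against its list with 26.1 FPKM under NCD-veh, 15.6 under HFD-veh and 33.2 under HFD-ncls (log2 ratio 1.09, and 0.85 after the length adjustment). Adipocyte markers had a median below 0 as well (-0.36), with 5 of 12 above 0. With adipose-enriched genes left out, 8 members of the fatty acid and triglyceride synthesis list remained, and their median was -0.053. Under that setting the adipocyte marker median was 0.02.

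Of 13 adipocyte markers, 12 were kept, with a median of -0.36, 5 over 1.4-fold lower and 1 higher (3.44% and 8.64% over all genes kept). Their summed level was 915 FPKM under NCD-veh, 856 under HFD-veh and 778 under HFD-ncls, and none was at 0. Lep, the satiety hormone made by fat cells, had 0.133 FPKM under NCD-veh, 5.04 under HFD-veh and 1.60 under HFD-ncls. Retn, another fat cell hormone, had 9.24, 19.3 and 7.91 FPKM. Other markers did not share this order: Fabp4 had 232, 284 and 291 FPKM, and Cfd had 76.7, 33.4 and 43.9. The part of fat tissue in the lower lipogenic genes was not tested. Cholesterol synthesis and uptake genes had a median of -0.28 over 12 members, with Dhcr7 and Nsdhl over 1.4-fold lower and none past 2-fold. That median was 0.07 among genes with at least 5 FPKM and 0.04 with genes at 5 or more times the other organs in liver left out.

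In the fibres, the differences beyond the slow-twitch set concerned a transcription factor, a cardiac actin and Z-disc proteins. Of 13 slow-twitch genes kept, 6 were over 2-fold higher (1.28% over all genes kept), with a median of 0.91 on a list that the study drew in part from these libraries. Among these 6, Tnnt1 was listed near 0 under HFD-veh (8.69e-06 FPKM), and Myh7 stood at 1.18, or 0.94 after the length adjustment. Sox6 (chromosome 7, 122614858 to 123182258) encodes a transcription factor known for repressing slow fibre genes, and was higher together with them. It had 7.88 FPKM under NCD-veh, 0.265 under HFD-veh and 6.36 under HFD-ncls, a log2 ratio of 4.15. The estimate behind these levels is about 56.0 fragments in HFD-veh and 1324 under HFD-ncls, so the HFD-veh level was far below the others without being at the detection limit. Fast-twitch genes had a median of -0.02 over 13 members, with none past 1.4-fold. Myh1 and Myh2, which encode fast myosin heavy chains, had log2 ratios of 0.45 and 0.32, and these became 0.21 and 0.08 after the length adjustment. By qRT-PCR the study reports Myh1 and Tnni2 as lower with ncls in HFD quadriceps, and by staining fewer fast glycolytic fibres. Tnni2 had a log2 ratio of -0.13 here.

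Actc1, the actin of heart and developing muscle, had 642 FPKM under NCD-veh, 146 under HFD-veh and 407 under HFD-ncls, a log2 ratio of 1.48. Csrp3 (chromosome 7, 56085768 to 56103400), a Z-disc protein that senses stretch, had 9.29, 4.85 and 14.6 FPKM, a log2 ratio of 1.57. They were the 2 members of the Z-disc and stress list over 2-fold higher, and 5 were over 1.4-fold higher. Over all genes kept these shares were 1.28% and 8.64%. The list's median over 22 genes was 0.22 (0.07 after the length adjustment). Liver held 22.4 FPKM of Csrp3 under HFD-veh, which adds little at the liver share in muscle. Its ratio with that share subtracted was 1.61.

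Mybph, a myosin-binding protein, was the most abundant lower gene. It had 148 FPKM under NCD-veh, 253 under HFD-veh and 91.5 under HFD-ncls, a log2 ratio of -1.47. The gene overlaps Adora1, the adenosine A1 receptor, on the opposite strand of chromosome 1 (Mybph at 136090025 to 136097808, Adora1 at 136095800 to 136132008). Adora1 had 0.609, 2.97 and 0.784 FPKM, the same order. Under HFD-veh, Mybph rested on about 11889 fragments and Adora1 on 441. In WAT, where Adora1 had 14.4 to 36.3 FPKM, Mybph was at most 0.0395. Whether the counting used strand is not given in the sources used here, so the muscle level of Adora1 is uncertain. Rcan1, an inhibitor of calcineurin, led the calcium handling list after the slow calcium pump Atp2a2, with 17.1 FPKM under NCD-veh, 23.5 under HFD-veh and 37.0 under HFD-ncls. That list had a median of -0.15 over 23 genes, none past 2-fold.

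The promoters of the sarcomere genes were read for motifs because those genes were higher together. RefSeq promoters on GRCm38.p6, running from 250 bases before to 50 after the start, were on hand for 8 sarcomere genes over 2-fold higher. Only the 250 bases before the start were searched. Matches are counted by gene in the sets and by promoter entry over all. The CArG box, the site of serum response factor, was found in Actc1 and Myl3, that is in 2 of 8, and in 1.47% of all 32851 promoters. The motif CATTCCT (read on both strands), the site of TEAD factors, was in Myl3 alone and in 4.51% of all promoters. CTA and TAG with any 4 bases between them, a pattern related to MEF2 sites, was in none of the 8 and in 3.20% of all. Other forms of MEF2 site were not searched, so their absence is not shown. TGTTTAC, a FOXO site, was in none of 4 promoters of fat oxidation and wasting genes (Pdk4, Acot1, Acot2 and Foxo3) and in 3.17% of all. The promoters of Angptl4 and Fbxo32 were not analysed here. A match is a description of letters and not a bound site. The 160 bases upstream of the start are printed for the promoters with a match, 5′ to 3′ on the gene's strand, with the motifs in capitals. Actc1 lies at chr2:114052876-114053035 (minus strand) with its CArG box 47 to 38 bases upstream. Myl3, the slow and ventricular myosin light chain, lies at chr9:110763518-110763677 (plus strand) with CATTCCT 149 to 143 bases and the CArG box 85 to 76 bases upstream.
Actc1: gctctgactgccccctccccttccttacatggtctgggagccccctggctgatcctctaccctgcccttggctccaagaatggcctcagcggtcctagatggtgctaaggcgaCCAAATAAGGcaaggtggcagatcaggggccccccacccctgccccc
Myl3: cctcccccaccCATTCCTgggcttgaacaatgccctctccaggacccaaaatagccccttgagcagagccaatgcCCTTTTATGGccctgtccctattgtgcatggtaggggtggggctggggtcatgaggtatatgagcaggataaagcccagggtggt

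Genes of protein loss and growth signalling split between higher and lower. Of 32 muscle wasting and glucocorticoid-responsive genes kept (median 0.14), 2 were over 2-fold higher and 4 over 2-fold lower. The shares over all genes kept were 1.28% higher and 0.593% lower. Fbxo32 (chromosome 15, 58011634 to 58046433), the ubiquitin ligase atrogin-1, had 105 FPKM under NCD-veh, 54.0 under HFD-veh and 120 under HFD-ncls, a log2 ratio of 1.14. Foxo3, the transcription factor that drives it, had 2.11, 1.28 and 2.89 FPKM, a log2 ratio of 1.12 that became 0.88 after the length adjustment. For both genes HFD-veh was the lowest of the muscle libraries. The partner ligase Trim63 (MuRF1) did not pass 1.4-fold, with 112, 98.7 and 128 FPKM.

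The lower members are known as genes that glucocorticoids or stress turn on. Sgk1, a kinase of the AKT family, had 58.9 FPKM under NCD-veh, 75.6 under HFD-veh and 35.3 under HFD-ncls. Ddit4, an inhibitor of mTORC1, had 5.09, 6.36 and 2.60 FPKM. Both had their lowest level in HFD-ncls. The metallothionein gene Mt2 had 4.80 FPKM under NCD-veh, 15.0 under HFD-veh and 7.28 under HFD-ncls, a log2 ratio of -1.04 (-0.92 after the length adjustment). Other glucocorticoid-responsive genes were higher instead, among them Fkbp5 with 11.5, 6.00 and 9.26 FPKM and Zbtb16 with 11.9, 10.1 and 15.5 (log2 ratio 0.61, and 0.42 after the length adjustment). Amd1, the remaining member past 2-fold, is described with the symbols near 0.

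Among insulin and IGF signalling genes the median of 24 members was 0.29 (0.19 after the length adjustment), with 10 over 1.4-fold higher and 1 lower. The shares over all genes kept were 8.64% higher and 3.44% lower. After the length adjustment 5 of the 24 were over 1.4-fold higher, with Igf1r at 0.90, Insr at 0.41 and Irs1 at 0.43. Igf1r, the IGF-1 receptor, had 1.89 FPKM under NCD-veh, 1.09 under HFD-veh and 2.31 under HFD-ncls. Insr, the insulin receptor, had 6.82, 4.80 and 8.07 FPKM. Irs1, which carries the signal from both receptors, had 6.16, 5.83 and 9.99 FPKM. The receptors thus had HFD-veh lowest, and Irs1 had HFD-ncls above the other pair. Igfbp5 (chromosome 1, 72904506 to 72921458), which binds IGFs outside the cell, was the lower member, with 75.3 FPKM under NCD-veh, 194 under HFD-veh and 84.3 under HFD-ncls.

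Cish and Chac1 were highest in HFD-ncls and alike in the other pair. Cish (chromosome 9, 107198357 to 107205115), an inhibitor of cytokine and growth hormone signalling that STAT5 turns on, had 4.64 FPKM under NCD-veh, 4.80 under HFD-veh and 17.6 under HFD-ncls, a log2 ratio of 1.85. Socs2, its relative, had 3.25, 3.43 and 6.69 FPKM, a log2 ratio of 0.95. Liver showed a higher Cish in HFD-ncls too, by 2.12 on the log2 scale. Chac1, which breaks down glutathione and belongs to the integrated stress response, had 48.8 FPKM under NCD-veh, 40.8 under HFD-veh and 91.5 under HFD-ncls. It was the only one of 20 unfolded protein and integrated stress response genes kept that passed 2-fold, the list's median was -0.01, and Atf4 and Ddit3, which act above it, had log2 ratios of 0.26 and -0.08.

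Immediate-early genes, which respond within minutes to activity or injury, had a median of -0.22 over 22 members. At 2-fold, 3 were lower (Nr4a3, Atf3 and Fos) and 1 higher (Ctgf). At 1.4-fold, 6 were lower and 3 higher (3.44% and 8.64% over all genes kept). Fos had 1.65 FPKM under NCD-veh, 14.8 under HFD-veh and 6.73 under HFD-ncls. Atf3 had 0.664, 3.83 and 1.29 FPKM. Nr4a3, a nuclear receptor that exercise induces, had 0.0876, 1.86 and 0.572 FPKM. In each of them HFD-ncls stood between the other libraries, with HFD-veh highest. Nr4a1, a close relative, had 36.1, 62.4 and 61.3 FPKM, so not every member followed. Ctgf, a matrix-associated growth factor, had 3.68, 2.29 and 5.33 FPKM.

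Tendon and matrix genes were higher in HFD-ncls. Of 8 tendon markers, 7 were kept, all with ratios above 0 and a median of 1.45. Over 2-fold, 4 were higher and at 1.4-fold 6. Among all genes kept, 56.8% were above 0, 1.28% over 2-fold higher and 8.64% over 1.4-fold higher. The summed level of the markers was 37.1 FPKM under NCD-veh, 26.5 under HFD-veh and 68.7 under HFD-ncls, and none was at 0. Chad (chromosome 11, 94426361 to 94430441), the cartilage and tendon matrix protein chondroadherin, had 2.64 FPKM under NCD-veh, 0.991 under HFD-veh and 6.73 under HFD-ncls, a log2 ratio of 2.65. Comp (chromosome 8, 72897447 to 72905964), cartilage oligomeric matrix protein, had 0.877, 0.504 and 2.79 FPKM, a log2 ratio of 2.26. Fmod, a proteoglycan that organises collagen fibrils, had 16.1, 10.5 and 33.6 FPKM. Kera, keratocan, had 2.11, 1.81 and 5.10 FPKM. All had their highest level in HFD-ncls, and HFD-veh was below NCD-veh. Scx, the transcription factor that defines tendon cells, had 1.97 FPKM under NCD-veh, 1.58 under HFD-veh and 1.79 under HFD-ncls.

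The extracellular matrix list had a median of 0.36 over 26 members (0.20 after the length adjustment), with 4 over 2-fold higher and 10 against 1 at 1.4-fold. Among all genes kept, 1.28% were over 2-fold higher, and 8.64% were higher against 3.44% lower at 1.4-fold. The lists share members, so their counts are not separate. Fmod, Comp and Thbs4 are also tendon markers, and Col1a1, Dcn and Lum are also fibroblast markers. Col1a1 and Col1a2, the chains of collagen I, had log2 ratios of 1.154 and 1.10, and 0.96 and 0.90 after the length adjustment. Col1a1 had 11.5 FPKM under NCD-veh, 8.14 under HFD-veh and 18.2 under HFD-ncls. Basement membrane collagens differed less, with Col4a1 at 7.94, 9.12 and 10.0 FPKM. Fibroblast markers had a median of 0.44 over 9 members, with Col1a1 and Pi16 over 2-fold higher, and a sum of 186 FPKM under NCD-veh, 209 under HFD-veh and 302 under HFD-ncls. Pi16, a marker of fibroblasts around vessels, had 5.17, 7.21 and 15.2 FPKM. The share of tendon and connective tissue in each piece of muscle was not measured, so its part and that of the matrix genes within the fibres' surroundings cannot be told apart.

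Macrophage markers were slightly higher too. Of 15 listed, 10 were kept, all above 0, with a median of 0.51 and 5 over 1.4-fold higher. Over all genes kept, 56.8% were above 0 and 8.64% over 1.4-fold higher. Their sum was 38.4 FPKM under NCD-veh, 43.2 under HFD-veh and 61.7 under HFD-ncls, with none at 0. C1qb, a complement protein made by macrophages, had 5.88 FPKM under NCD-veh, 5.11 under HFD-veh and 8.68 under HFD-ncls. The chemokine gene Ccl7 went the other way, with 0.247, 1.29 and 0.120 FPKM. MHC class II genes had a median of 0.30 over 5 members. T and B lymphocyte markers and proliferation genes had no member at 1 FPKM.

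**Figure D4:**
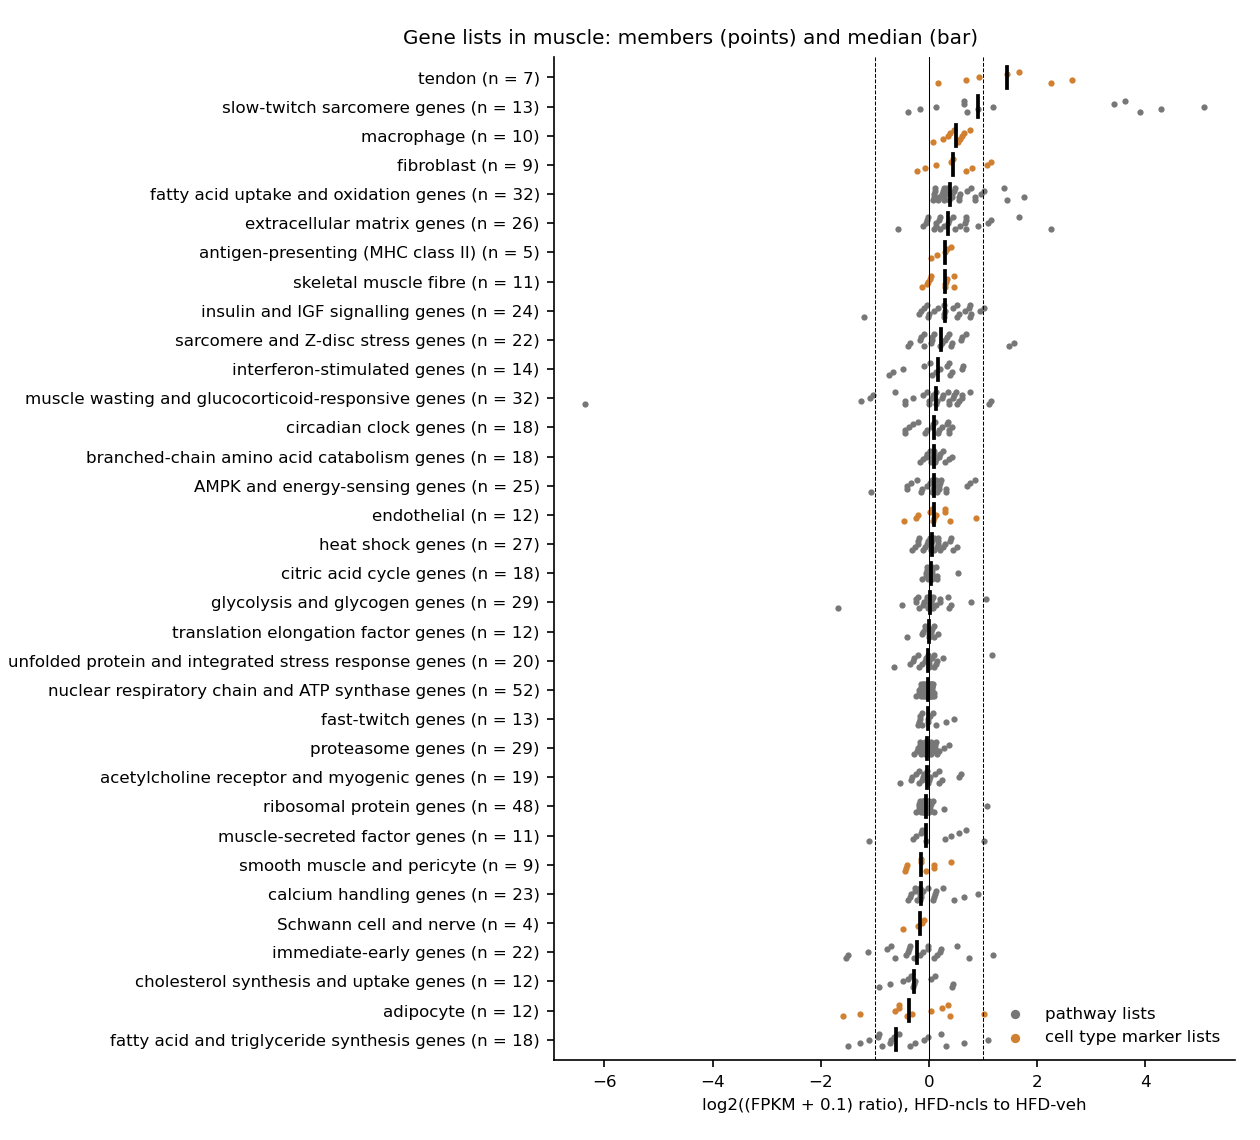
Log2 ratios of HFD-ncls to HFD-veh muscle (x axis) for the kept members of each gene list with at least 4 of them, as points, with the list's median as a black bar. Pathway lists are grey and cell type marker lists orange, and the dashed lines mark 2-fold. Tendon (1.45) and slow-twitch genes (0.91) have the highest medians, fatty acid and triglyceride synthesis (-0.60) and adipocyte markers (-0.36) the lowest.

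Much of the muscle transcriptome differed little. The 52 nuclear genes of the respiratory chain and ATP synthase had ratios from -0.25 to 0.10 and a median of -0.02 (0.05 after the length adjustment), beside the higher oxidation genes above. No member of that list passed 1.4-fold. The same held for 18 branched-chain amino acid catabolism genes (median 0.09), 18 circadian clock genes (0.10), 29 proteasome genes (-0.03, and 0.03 after the length adjustment) and 12 translation elongation factors (0.00, and -0.04 after rescaling). Eef1a2, the elongation factor of adult muscle, had 822 FPKM under NCD-veh, 754 under HFD-veh and 777 under HFD-ncls. Ribosomal protein genes had a median of -0.05 over 48 members (0.05 after the length adjustment), and their only member past 1.4-fold, Rps27, rested on about 6.36 and 14.2 fragments. Heat shock genes had a median of 0.05 over 27 members, with Hspa4l alone past 1.4-fold (0.52, and 0.19 after the length adjustment).

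A few other lists held scattered differences. Acetylcholine receptor and myogenic genes had a median of -0.04 over 19 members, with the MEF2 factors Mef2a (0.60) and Mef2d (0.56) past 1.4-fold and Colq at -0.53. After the length adjustment Mef2a (0.41) and Mef2d (0.37) no longer passed. Interferon-stimulated genes had a median of 0.17 over 14 members, with 2 higher and 3 lower at 1.4-fold (8.64% and 3.44% over all genes kept). Of the muscle-secreted factors, Ostn, which encodes musclin, was over 2-fold lower with 2.005 FPKM under NCD-veh, 5.56 under HFD-veh and 2.54 under HFD-ncls, and the list's median over 11 genes was -0.05. Endothelial markers had a median of 0.09 over 12 members, smooth muscle and pericyte markers -0.14 over 9 and nerve markers -0.16 over 4. Brown adipocyte and erythroid lists kept 2 members each, Ppargc1a and Cox7a1 (-0.34 and -0.11) and Hbb-b1 and Alas2 (-0.30 and -0.60). Ppargc1a had its highest mean level in muscle, and Cox7a1 had 714 FPKM in HFD-veh muscle, so neither marks brown fat here.

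The lower genes were in part genes of liver. Of the 56 genes over 2-fold lower, 19 had their highest mean level in WAT (33.9%), 17 in liver (30.4%), 16 in muscle (28.6%) and 4 in BAT (7.14%). Among all genes kept, 56.0% were highest in WAT, 11.8% in liver, 20.8% in muscle and 11.4% in BAT. Genes highest in WAT or BAT were thus a smaller share of the lower genes than of all genes kept. For the liver-enriched genes of the series, the excess in HFD-veh muscle over the mean of NCD-veh and HFD-ncls muscle was taken. Its median was 0.567% of the HFD-veh liver level. With that share of the liver level subtracted, 44 of the 56 genes were still over 2-fold lower and 12 were not. Pck1, a gluconeogenic enzyme and the 1 hepatocyte marker among the genes kept, went from -1.09 to -0.40. Adh1, alcohol dehydrogenase, went from -1.39 to -0.67, and Mgst1, a microsomal glutathione transferase, from -1.77 to -0.89. Hp and Cdo1, which both WAT and liver express strongly, went from -2.14 to -1.45 and from -2.09 to -1.40. The hepatocyte marker list summed to 22.5 FPKM under NCD-veh, 672 under HFD-veh and 14.01 under HFD-ncls, and 7 of its markers were at 0 under HFD-ncls. The muscle genes named above (Mybph, Ppp1r3c, Prkag3, Sgk1 and Ostn) kept their ratios to within rounding. Other lower genes highest in muscle were Odf3l2 (4.47 FPKM under NCD-veh, 15.5 under HFD-veh and 4.74 under HFD-ncls) and the magnesium transporter gene Slc41a3 (28.3, 38.0 and 17.0).

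**Figure D5:**
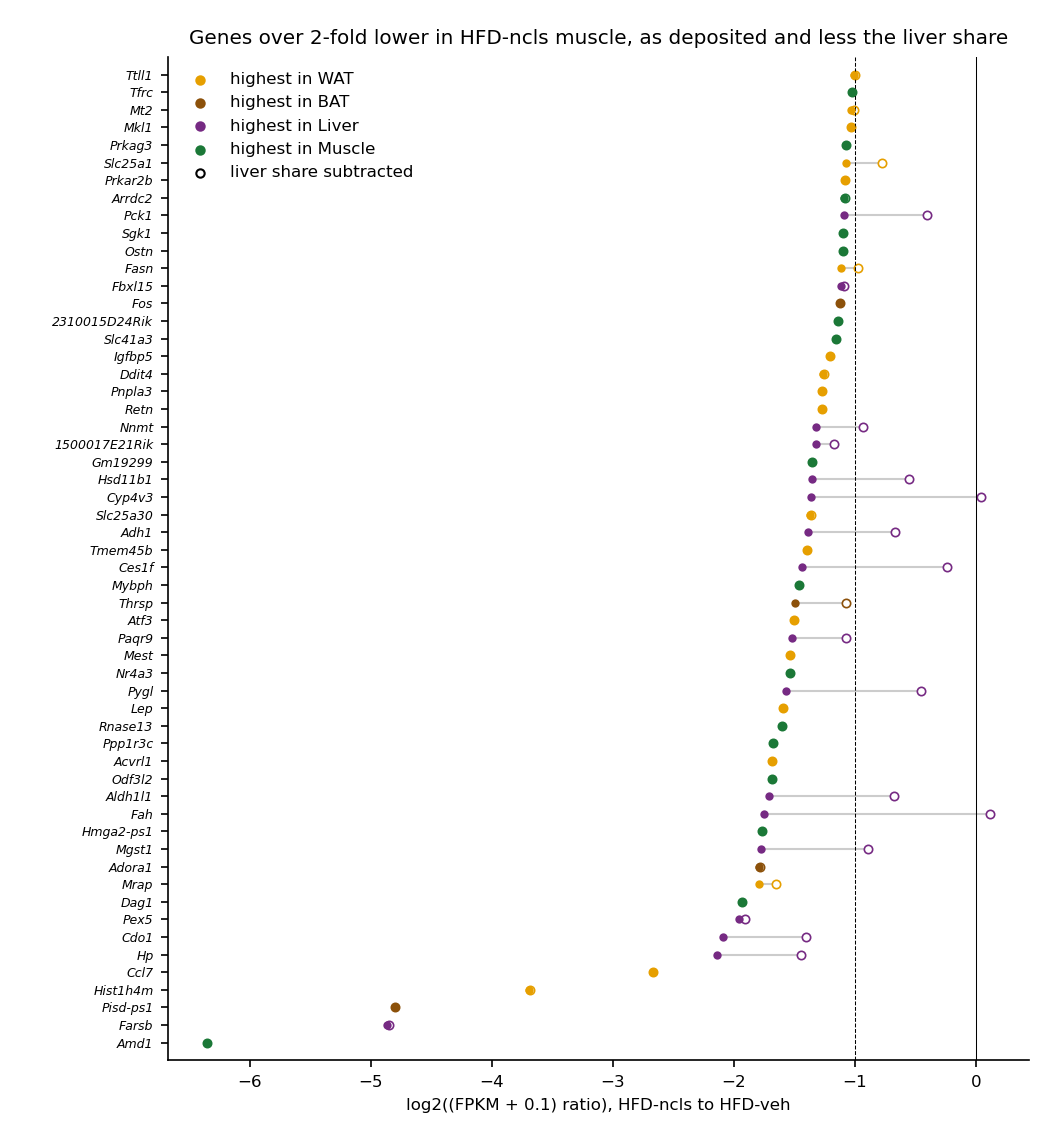
Log2 ratio of HFD-ncls to HFD-veh muscle (x axis) for the 56 genes over 2-fold lower (rows), as deposited (filled) and with the liver share subtracted from HFD-veh (open), coloured by the organ of highest mean level. The open points that cross the dashed 2-fold line to the right are 12 genes, 10 of them highest in liver, while the muscle genes in green do not move.

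The largest ratios belonged to symbols near 0 in 1 library, and these are uncertain. Among the genes kept, 8 were under 0.05 FPKM in a library, 5 of them in HFD-veh and 3 under HFD-ncls. Amd1, which encodes the polyamine enzyme S-adenosylmethionine decarboxylase, had 0.0188 FPKM under NCD-veh, 9.49 under HFD-veh and 0.0172 under HFD-ncls. It was at most 0.0248 FPKM in the HFD-veh libraries of WAT, BAT and liver. Its paralog Amd2 has no value in the table, so the assignment of reads between the copies is uncertain. Odc1, the enzyme before it in polyamine synthesis, was chosen after its values were seen and had 41.8 FPKM under NCD-veh, 25.6 under HFD-veh and 57.4 under HFD-ncls. Smox, which breaks polyamines down, had 342, 152 and 160 FPKM.

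Farsb, a subunit of phenylalanyl-tRNA synthetase and a gene every cell uses, was listed at 9.04e-08 FPKM under NCD-veh and 0.00767 under HFD-ncls but had 3.04 under HFD-veh. No direction is read from such values. Pisd-ps1, a pseudogene of phosphatidylserine decarboxylase, had 0.0499, 4.16 and 0.0526 FPKM, while the parent gene Pisd had 4.50, 4.56 and 4.86. H2-Q8, of the class I histocompatibility genes, had 1.75, 0.000478 and 2.11 FPKM, and its neighbour H2-Q7 had 2.39, 0.401 and 0.0520. Atp6v0c-ps2, with the highest ratio of all, had 0.0288, 0.0884 and 7.32 FPKM, while its parent gene Atp6v0c had 86.1, 94.3 and 72.3. Zbtb24, Fancl and Vps13d, listed at 1.18, 1.13 and 1.14 FPKM under HFD-ncls, were below 0.05 in HFD-veh, as was Tnnt1. Dag1, which encodes dystroglycan, a protein every muscle fibre carries, was listed at 2.30 FPKM under NCD-veh, 2.43 under HFD-veh and 0.561 under HFD-ncls, and at 2.59e-08 under HFD-veh liver.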

How the data were processed

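Total RNA of frozen tissue was sequenced on Illumina libraries. The deposited values are FPKM, 1 per symbol and library, which the authors made with TopHat alignments to mm9 and Cufflinks on RefSeq genes. Scaling between libraries and the use of strand are not given in the sources used here. FPKM is not a count, so no count test was run, and 1 library per group allows no test.

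Before log2 ratios were taken, 0.1 was added to each value, and a gene needed 1 FPKM or more in a muscle library of the HFD groups. Computations used Python 3.11.15, numpy 2.4.6, pandas 2.3.3 and matplotlib 3.10.9, and were tested on simulated data. Positions and transcript lengths come from GENCODE vM1 (mm9), promoters from RefSeq (GRCm38.p6). Depth is approximate and limits low genes.

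Members and gene lists were chosen with earlier results of these data known. Named genes are the 12 most increased and 12 most decreased genes, the same among genes with at least 10 FPKM, each list's members past 2-fold and its 2 largest ratios, and the neighbours of the 2-fold threshold. Some genes that meet this rule are not reported here. Other list members illustrate their list, chosen after their values were seen. Alternatives are in the closing section. The adjustment for transcript length was chosen after seeing the data.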

Additional observations from a re-analysis of the deposited data

Results flagged for a closer look

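Liver-enriched genes, which were left out of the comparison, had a median of 3.005 FPKM in HFD-veh muscle, above their level in the other muscle libraries. Some genes over 2-fold apart in muscle were over 2-fold apart in the opposite direction in another organ, given here as log2 ratios of HFD-ncls to HFD-veh in that organ. With 1 library per organ and group, the difference between organs was not tested. Among genes lower in muscle, Ppp1r3c was higher in WAT (1.42), Fasn in liver (1.31), Dag1 in WAT (4.77) and Pisd-ps1 in BAT (5.95) and liver (5.80). Among genes higher in muscle, Pdpr was lower in liver (-2.27) and so was Fzd4, a Wnt receptor gene (-1.68). The slow-twitch and Z-disc genes higher in muscle were lower in BAT: Tnni1 (-4.14), Myl3 (-3.46), Myl2 (-3.44), Myh7 (-3.23), Csrp3 (-2.34) and Tnnc1 (-2.25). The 13 fast-twitch genes with a ratio in BAT had a median of -2.63 there, with 13 below 0, and the part of muscle RNA in it was not tested. Zbtb24 was lower in WAT (-4.02), Vps13d in WAT (-1.96) and Fancl in liver (-4.69), and all of these were listed near 0 in some libraries. The ratios of Dag1 in WAT and of Pisd-ps1 rest on such values too, since HFD-veh had 0.0108 FPKM of Dag1 in WAT, and 0.0365 of Pisd-ps1 in BAT and 0.0404 in liver.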

How the results depend on the processing

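No paired analysis was possible because there was 1 library per organ and group. No list median past 1.4-fold and no named gene past 2-fold changed direction under any alternative, but some smaller medians did. With rescaling these were glycolysis (-0.03), the citric acid cycle (-0.00) and elongation factors (-0.04). With the length adjustment they were the respiratory chain (0.05), proteasome (0.03) and ribosomal protein genes (0.05). Unfolded protein response genes were at 0.02 with the liver share subtracted and 0.03 with at least 5 FPKM, cholesterol genes at 0.07 with at least 5 FPKM and 0.04 with liver-enriched genes taken at 5 times, secreted factors at 0.16 with no filter and adipocyte markers at 0.02 without adipose-enriched genes. The counts of genes depended on the treatment of low values. Genes over 2-fold higher were 60 with a pseudocount of 1, 55 with at least 5 FPKM and 334 with no filter. Genes over 2-fold lower were 32, 26 and 185 under the same settings, 245 with liver-enriched genes kept and 32 with adipose-enriched genes left out. At 1.4-fold, 401, 282 and 1921 genes were higher under those 3 settings and 188, 142 and 913 lower, and 531 were lower with liver-enriched genes kept. Fatty acid and triglyceride synthesis genes had a median of -0.38 with a pseudocount of 1, -0.30 with at least 5 FPKM, -0.35 with the liver share subtracted and -0.053 without adipose-enriched genes. The macrophage median of 0.51 was 0.37 with a pseudocount of 1, 0.47 after rescaling by the median ratio and 0.47 with no filter. The fibroblast median was 0.69 with at least 5 FPKM. Fewer genes were compared at 5 FPKM, and the cause of these shifts was not tested. Of the other settings, 980 values of named genes kept their side of 2-fold, 33 no longer passed it and 4 came to pass it.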
